A study of Mus musculus with 12 samples.

Results

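RNA levels of 10 genes of injury signalling were examined in 2 tissues, retina and striatum, of the R6/1 line, a transgenic mouse model of Huntington's disease, and of wt mice. The genes encode the cytokine Lif, its receptor chains Lifr and Il6st, the related receptor chain Osmr, the transcription factor Stat3 and its feedback inhibitor Socs3, the peptide Edn2 and its receptor Ednrb, the growth factor Fgf2 and the nuclear cofactor Bcl3. They were chosen as a list of symbols and matched to the Ensembl identifiers of the deposited table through GENCODE mouse gene names on GRCm38, and all 10 were found among its 17579 genes. Libraries came from 4 groups with n = 3 each: R6/1 retina, wt retina, R6/1 striatum and wt striatum. All mice were males on a C57Bl/6 background aged 13 to 15 weeks, and retina and striatum were taken from the same animals. The R6/1 transgene is driven by the human huntingtin promoter and encodes only exon 1 of the human gene with a lengthened CAG repeat, so the model expresses a fragment of the protein beside the intact mouse gene. The table holds mouse genes, and the transgene was not measured here. Each library was made from a pool of RNA from several mice, so every SD is a spread between pools and the p-values measure that spread, not the variation between single mice.

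These genes form a chain that is well known in the stressed retina. Lif is released by Müller glia when photoreceptors are damaged, binds Lifr together with the shared signal transducer gp130 (Il6st), and activates Janus kinases that phosphorylate Stat3. Phosphorylated Stat3 enters the nucleus and induces, among others, Socs3, which blocks the receptor complex again. In mice the same injuries induce Edn2, mostly in photoreceptors, and Fgf2, and the endothelin receptor Ednrb is found on Müller glia and astrocytes. In the mouse retina Lif is needed for part of this response and prolongs the survival of photoreceptors.

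The libraries held 17024353 to 17926885 counts in R6/1 retinas, 14070445 to 18661772 in wt retinas, 15885261 to 22432431 in R6/1 striata and 17206379 to 20159277 in wt striata. Cell type markers were compared with the labelled tissues. The summed level of 7 rod genes was 15682 to 22937 counts scaled to library size (CPM) in R6/1 retinas and 53597 to 61847 CPM in wt retinas, against at most 5.17 CPM in any striatum, with Nr2e3 at 0 in all striata. Medium spiny neuron genes summed to 576 to 1105 CPM in R6/1 striata and 2082 to 2868 CPM in wt striata. They summed to 622 to 662 CPM in R6/1 retinas and 903 to 959 CPM in wt retinas. This sum therefore separated wt striata from the retinas, but not R6/1 striata. Of its 7 genes 6 were lower in wt retina than in wt striatum and 1, Rgs9, was higher. Some libraries stood apart in markers of neighbouring tissue. Lens genes summed to 41.5 CPM in R6/1 retina replicate 3 and to at most 6.15 CPM in the other retinas. Choroid plexus genes summed to 155 CPM in R6/1 striatum replicate 3 and to at most 33.3 CPM in the other striata. Genes of cortical excitatory neurons summed to 207 to 311 CPM in R6/1 striata and to 220 CPM in wt striatum replicate 2, against 567 and 621 CPM in the other wt striata. Results that changed without one of these libraries are given with and without it. In such bulk samples, fewer cells of a type and less RNA per cell cannot be told apart.

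In the R6/1 retina, 9 of the 10 genes were upregulated and Ednrb was downregulated relative to wt. Genes passed at an adjusted p under 0.05 in edgeR's quasi-likelihood test, with Benjamini-Hochberg adjustment over all 16582 genes tested in the retina. Of those genes 22.3% passed, 9.58% as higher and 12.7% as lower. The R6/1 and wt libraries did not overlap for any of the 10 genes, against 38.4% of all genes tested. The median log2 fold change of the 10 was 1.52, beside 0.01 over all genes tested. Each of the 10 calls held in all 17 alternative fits. With library totals in place of TMM factors the median over all genes became 0.13 and the calls were 3886 higher and 1445 lower, beside 1588 higher and 2103 lower, and Ednrb then stood at −0.51.

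**Figure D1:**
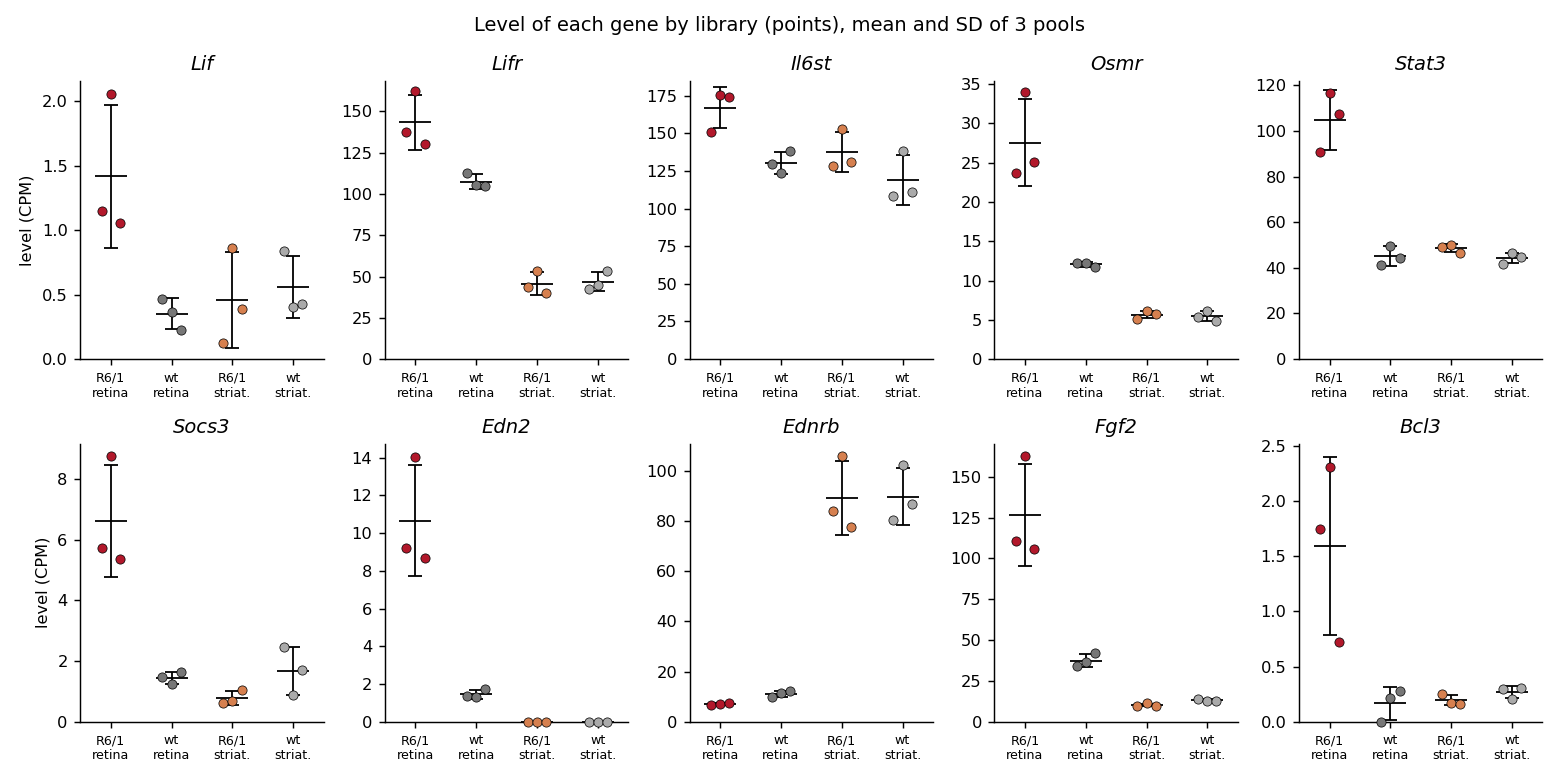
Level of each of the 10 genes in CPM (vertical axes, each starting at 0) in R6/1 retina, wt retina, R6/1 striatum and wt striatum, with 1 point per library, the mean as a horizontal bar and the SD as whiskers (n = 3 pools). For 9 genes every R6/1 retina library lies above every wt retina library, for Ednrb every one lies below, and Edn2 is at 0 in all 6 striata.

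Lif, the cytokine at the head of the chain, lies on chromosome 11 from 4257557 to 4272514 (ENSMUSG00000034394) and was expressed at a low level. It had 1.15, 2.06 and 1.05 CPM in R6/1 retinas, against 0.469, 0.366 and 0.225 CPM in wt retinas. These levels rest on 21, 40 and 19 counts in R6/1 retinas and on 7, 5 and 4 counts in wt retinas. The lowest R6/1 library thus lay well above the highest wt library, and the fitted increase was 4.11-fold (log2 fold change 2.04, SE 0.43, adjusted p = 0.00252 by edgeR).

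The receptor chains had smaller fold changes than the ligand, which was not tested as a difference. Lifr, the chain that binds Lif (chromosome 15, 7090614 to 7197489), had 138, 162 and 130 CPM in R6/1 retinas, against 113, 105 and 105 CPM in wt retinas. This was a 1.36-fold increase (log2 0.45, SE 0.08, adjusted p = 0.000473 by edgeR). Il6st, which encodes gp130, the chain shared by all receptors of the family (chromosome 13, 112464070 to 112510086), had 151, 176 and 174 CPM in R6/1 retinas, against 130, 124 and 138 CPM in wt retinas. The increase of 1.31-fold was the smallest of the 9 genes (log2 0.39, SE 0.07, adjusted p = 0.000477 by edgeR). Osmr, the oncostatin M receptor chain that also pairs with gp130 (chromosome 15, 6813577 to 6874969), had a larger fold change than both. It had 23.7, 34.0 and 25.0 CPM in R6/1 retinas, against 12.3, 12.2 and 11.7 CPM in wt retinas. The wt libraries were within 1 CPM of each other and all R6/1 libraries lay far above them, 2.34-fold in the fit (log2 1.22, SE 0.13, adjusted p = 4.13e-06 by edgeR).

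Stat3, the transcription factor of the chain (chromosome 11, 100885098 to 100939540, minus strand), had 90.7, 117 and 107 CPM in R6/1 retinas, against 41.2, 49.7 and 44.5 CPM in wt retinas. It was upregulated 2.38-fold with little spread between pools (log2 1.25, SE 0.09, adjusted p = 4.46e-07 by edgeR). Stat3 overlaps Stat5a on the opposite strand. Stat5a had 1.86, 2.88 and 2.60 CPM in R6/1 retinas, against 2.74, 2.05 and 3.70 CPM in wt retinas, and did not pass (log2 −0.19, SE 0.25, adjusted p = 0.641). The libraries were made with a kit that keeps the strand.

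Socs3, the feedback inhibitor that Stat3 is known to induce (chromosome 11, 117966079 to 117970047, minus strand), had 5.73, 8.74 and 5.37 CPM in R6/1 retinas, against 1.47, 1.24 and 1.63 CPM in wt retinas. The gap between the groups was wider than the range within either, and the increase was 4.63-fold (log2 2.21, SE 0.23, adjusted p = 1.76e-06 by edgeR). Since 9 of the genes moved together and Stat3 was among them, their promoters were searched for the STAT motif TTCNNNGAA, which reads the same on both strands. RefSeq gave 11 windows for the 10 genes on GRCm38.p6, each with 250 bases before and 50 after a transcription start, and Lifr had 2 of them. The motif was in 1 of the 11, that of Socs3, and in 8.3% of all 32851 windows of this length. The stricter form TTCCNGGAA was in none of the 11 and in 1.15% of all windows. The Socs3 stretch is shown because it is the single match, with the motif in capitals, 154 to 146 bases before the RefSeq start on the minus strand at chr11:117969492-117969540.
Socs3: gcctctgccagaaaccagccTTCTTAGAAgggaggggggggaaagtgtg
In GENCODE the stretch lies in no exon. It is 306 bases upstream of the start of the protein-coding transcript and within an intron of a longer non-coding transcript. The Socs3 window, 117969317 to 117969616, lies wholly upstream of that start at 117969186. The bases directly before the protein-coding start were therefore not searched, for either form of the motif. A match describes these letters only, and binding of Stat3 was not measured.

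Edn2, a small vasoactive peptide of the endothelin family, lies on chromosome 4 from 120161206 to 120167360. It had 9.22, 14.04 and 8.70 CPM in R6/1 retinas, against 1.34, 1.32 and 1.74 CPM in wt retinas. These were 169, 273 and 157 counts in R6/1 retinas and 20, 18 and 31 counts in wt retinas. The lowest R6/1 library lay far above the highest wt library, and the fitted increase was 7.35-fold (log2 2.88, SE 0.21, adjusted p = 1.21e-07 by edgeR). Ednrb, the B-type endothelin receptor (chromosome 14, 103814625 to 103844402), went the other way. It had 6.60, 7.25 and 7.53 CPM in R6/1 retinas, against 9.97, 11.3 and 12.4 CPM in wt retinas. Its downregulation was 1.54-fold (log2 −0.62, SE 0.13, adjusted p = 0.0018 by edgeR). Ligand and receptor of the endothelin branch therefore differed in direction, whereas in the Lif branch ligand and receptor chains were all higher.

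Fgf2, the basic fibroblast growth factor (chromosome 3, 37348346 to 37410108), had 111, 163 and 106 CPM in R6/1 retinas, against 33.9, 36.8 and 41.8 CPM in wt retinas. It was upregulated 3.44-fold (log2 1.78, SE 0.22, adjusted p = 0.00561 by edgeR). Fgf2 overlaps Nudt6 on the opposite strand, which stood at 1.99 to 2.73 CPM in R6/1 retinas and at 1.32 to 2.19 CPM in wt retinas, far under the level of Fgf2. Bcl3, an atypical IkappaB protein that works with NF-kappaB subunits in the nucleus (chromosome 7, 19808462 to 19822770), was the scarcest of the 10 genes in wt retina per kilobase of exon, at 0.0674 CPM per kb. It had 32, 45 and 13 counts in R6/1 retinas and 0, 3 and 5 counts in wt retinas. In CPM these were 1.75, 2.31 and 0.72 in R6/1 retinas, against 0, 0.219 and 0.281 in wt retinas. The fitted increase of 9.21-fold had the largest SE of the 10 genes (log2 3.20, SE 0.66, adjusted p = 0.00403 by edgeR) and ranged from 2.66 to 3.86 on the log2 scale when single libraries were left out.

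Per kilobase of exon, the scale on which genes can be set against each other, the order of the genes changed with genotype. In R6/1 retinas Fgf2 had the highest level, 18.7 ± 4.62 CPM per kb (SD, n = 3), followed by Il6st at 15.1 ± 1.24, Lifr at 13.3 ± 1.54, Stat3 at 11.0 ± 1.38 and Edn2 at 7.29 ± 2.02 CPM per kb. In wt retinas Il6st came first at 11.8 ± 0.667 and Lifr second at 9.98 ± 0.424 CPM per kb, with Fgf2 at 5.53 ± 0.592, Stat3 at 4.74 ± 0.447 and Edn2 at 1.00 ± 0.163 CPM per kb. Lif was the lowest of the 10 in R6/1 retinas, at 0.326 ± 0.128 CPM per kb, and stood at 0.0811 ± 0.0282 CPM per kb in wt retinas.

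The 3 R6/1 retinas differed in the size of these changes. Replicate 2 was the highest R6/1 library for all 9 upregulated genes, whereas it was the highest for 37.1% of the 1588 genes called higher in the retina. Replicate 3 was the lowest for 6 of the 9 and replicate 1 for the other 3. Over the wt mean, replicate 2 stood at 9.58-fold for Edn2, 6.04-fold for Socs3, 5.83-fold for Lif and 4.34-fold for Fgf2. Replicate 1 stood at 6.29-fold for Edn2, 3.96-fold for Socs3, 3.25-fold for Lif and 2.96-fold for Fgf2, and replicate 3 at 5.94, 3.71, 2.98 and 2.83-fold for the same genes. Without replicate 2 the 9 genes remained called, with log2 fold changes of 2.62 for Edn2, 1.95 for Socs3, 1.67 for Lif, 1.56 for Fgf2 and 1.17 for Stat3. Ednrb did not follow this order and was lowest in replicate 1, at 0.589 of the wt mean. Rod genes summed to 15682 CPM in R6/1 replicate 2 and to 20866 and 22937 CPM in replicates 1 and 3, and their part in these differences was not tested.

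**Figure D2:**
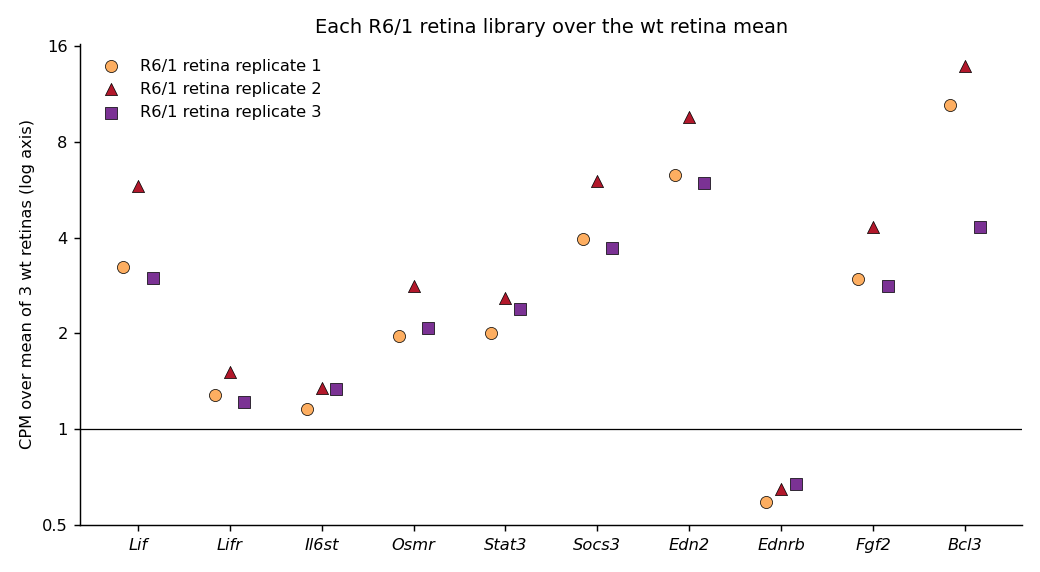
Level of each gene in each R6/1 retina library divided by the mean of the 3 wt retinas (vertical log axis, 1 marks equality). Replicate 2 (triangles) is the highest of the 3 libraries for all 9 upregulated genes, up to 13.9-fold for Bcl3, and all 3 libraries lie under 1 for Ednrb.

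Markers of glia and other cells were measured beside these changes. Of 10 Müller glia markers none was called higher and Glul, which encodes glutamine synthetase, was lower, and their sum was 3438 to 3744 CPM in R6/1 retinas and 3964 to 4490 CPM in wt retinas. The other 9 were not called, and the median log2 fold change of the 10 markers was −0.003. Of 6 astrocyte markers Gfap and Aldh1l1 were higher, with a sum of 443 to 527 CPM in R6/1 retinas and 455 to 472 CPM in wt retinas. Among markers of microglia and macrophages Csf1r, Itgam and C1qa were higher and none was lower, and the sum of the list was 61.3 to 68.6 CPM in R6/1 retinas and 45.7 to 47.4 CPM in wt retinas. All 7 rod and all 5 cone markers were lower. Red blood cell genes summed to 19.8 to 31.6 CPM in R6/1 retinas and 40.7 to 58.2 CPM in wt retinas, and mitochondrial genes took 8.76 to 9.63% of the counts in R6/1 retinas and 7.61 to 8.18% in wt retinas. No marker of these lists was at 0 in any retinal group, and the part of all these values in the changes of the 10 genes was not tested.

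Around the 10 genes, 82 further genes of the same pathways were listed, of which 78 are in the table and 75 could be tested in the retina. There were 10 called higher and 8 called lower, and the median log2 fold change was 0.10. These counts are close to the shares of 9.58% higher and 12.7% lower over all genes, so the pathway genes as a whole did not stand out from the background. With library totals in place of TMM factors, 16 were higher and 4 lower. The genes that Stat3 is known to induce and genes of glial injury carried most of the increases, with 7 of 15 higher and none lower. The lists were fixed with earlier results of these data known, so these counts are a description. Gfap, the intermediate filament of reactive glia, had 31.7, 39.6 and 32.8 CPM in R6/1 retinas, against 9.77, 11.1 and 13.0 CPM in wt retinas (log2 1.65, SE 0.12, adjusted p = 5.2e-08 by edgeR). A2m, a protease inhibitor of the acute phase, had 47.0, 74.4 and 35.3 CPM in R6/1 retinas, against 9.44, 10.5 and 10.2 CPM in wt retinas (log2 2.41, SE 0.36, adjusted p = 0.0149). The call of A2m was lost on leaving out any one of wt retina replicates 1, 2 and 3 (adjusted p up to 0.0717). The serpin gene Serpina3n (2.17, SE 0.23), the transcription factor genes Cebpd (1.99, SE 0.28) and Junb (0.65, SE 0.15), the filament gene Vim (0.37, SE 0.08) and the survival gene Mcl1 (0.27, SE 0.06) rose as well. Lcn2, often used as a marker of glial injury, was at −0.69 (SE 0.25, adjusted p = 0.055), and Timp1 was at 0.50 (SE 0.73, adjusted p = 0.681). Of the same list Steap4 (0.94, SE 0.33), Myc (0.70, SE 0.64), Cebpb (0.28, SE 0.45) and Il4ra (0.19, SE 0.16) were not called either. Nor were the kinase genes Pim1 (0.00, SE 0.18) and Pim3 (−0.30, SE 0.13). Steap4 was near the threshold (adjusted p = 0.053 by edgeR) and was called higher with library totals (1.05, adjusted p = 0.0261 by edgeR).

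Upstream of Stat3 the changes were few. Among the Janus kinases Jak3 was higher, at 2.29, 5.71 and 3.38 CPM in R6/1 retinas against 1.20, 0.805 and 0.954 CPM in wt retinas (log2 1.96, SE 0.32, adjusted p = 0.000494 by edgeR). Jak1, Jak2 and Tyk2, the kinases that serve gp130, did not pass (−0.12, 0.14 and 0.25). With library totals Jak2 and Tyk2 were called higher (0.26 and 0.37). None of the 5 other gp130 cytokines tested was called by edgeR, by DESeq2 or by limma-voom, and none had an unadjusted p under 0.05. Among them Cntf, a ligand that shares Lifr and gp130 with Lif, had 4.31, 2.88 and 3.21 CPM in R6/1 retinas and 3.01, 2.78 and 2.53 CPM in wt retinas (0.36, SE 0.21). Cntfr, the third chain of the Cntf receptor, was lower (−0.30, SE 0.10, adjusted p = 0.0387), a call lost without wt retina replicate 2 or 3 or R6/1 retina replicate 1 or 3 (adjusted p up to 0.15). Of 14 further regulators 4 were lower and none higher, the Stat3 inhibitor Pias3 (−0.55, SE 0.07, adjusted p = 1.41e-05) with Cish (−0.61, SE 0.16), Socs2 (−0.34, SE 0.11) and Socs4 (−0.23, SE 0.06), relatives of Socs3. The calls of Cish and Socs4 were lost without wt retina replicate 1 (adjusted p = 0.0852 and 0.0691), and that of Socs2 on leaving out any library but R6/1 retina replicate 2 (up to 0.118). The remaining relatives Socs1, Socs5, Socs6 and Socs7 were at 0.15, 0.05, 0.10 and −0.09, none of them called, so that Socs3 alone rose in this family under TMM factors. With library totals Socs6 was called higher too (0.21, adjusted p = 0.0273), and Cntfr, Socs2 and Socs4 were not called.

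The other branches showed no common direction. None of the 5 further genes of the endothelin system was called by edgeR, DESeq2 or limma-voom, and 1 had an unadjusted p under 0.05. That gene was Edn1, the main vascular endothelin, at 1.15, 0.72 and 1.16 CPM in R6/1 retinas, against 1.94, 2.27 and 1.40 CPM in wt retinas (−0.85, SE 0.31, adjusted p = 0.0612). Edn3 and the A-type receptor Ednra were at −0.25 (SE 0.48) and −0.41 (SE 0.28). Of 14 genes of FGF signalling, the transcription factor gene Etv5 was higher (0.39, SE 0.09, adjusted p = 0.00452). The ligand Fgf1 was lower, at 30.3, 35.1 and 38.5 CPM in R6/1 retinas against 52.8, 49.2 and 53.4 CPM in wt retinas (−0.55, SE 0.08, adjusted p = 9.12e-05). Fgf1 and Fgf2 thus moved in opposite directions. Etv4 (−0.77, SE 0.22) and the FGF inhibitor Spry2 (−0.23, SE 0.08) were lower too, with adjusted p up to 0.11 for Etv4 without wt retina replicate 1 or R6/1 retina replicate 2 or 3, and up to 0.207 for Spry2 on leaving out any library but R6/1 retina replicate 2. The 10 NF-kappaB subunits and IkappaB proteins, the partners of Bcl3, held no call in edgeR, DESeq2 or limma-voom, with Rela alone at an unadjusted p under 0.05 (0.24, SE 0.10, adjusted p = 0.106). With library totals Rela (0.36) and Ece2, an endothelin-converting enzyme (0.25), were called higher, and Spry2 was not called.

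**Figure D3:**
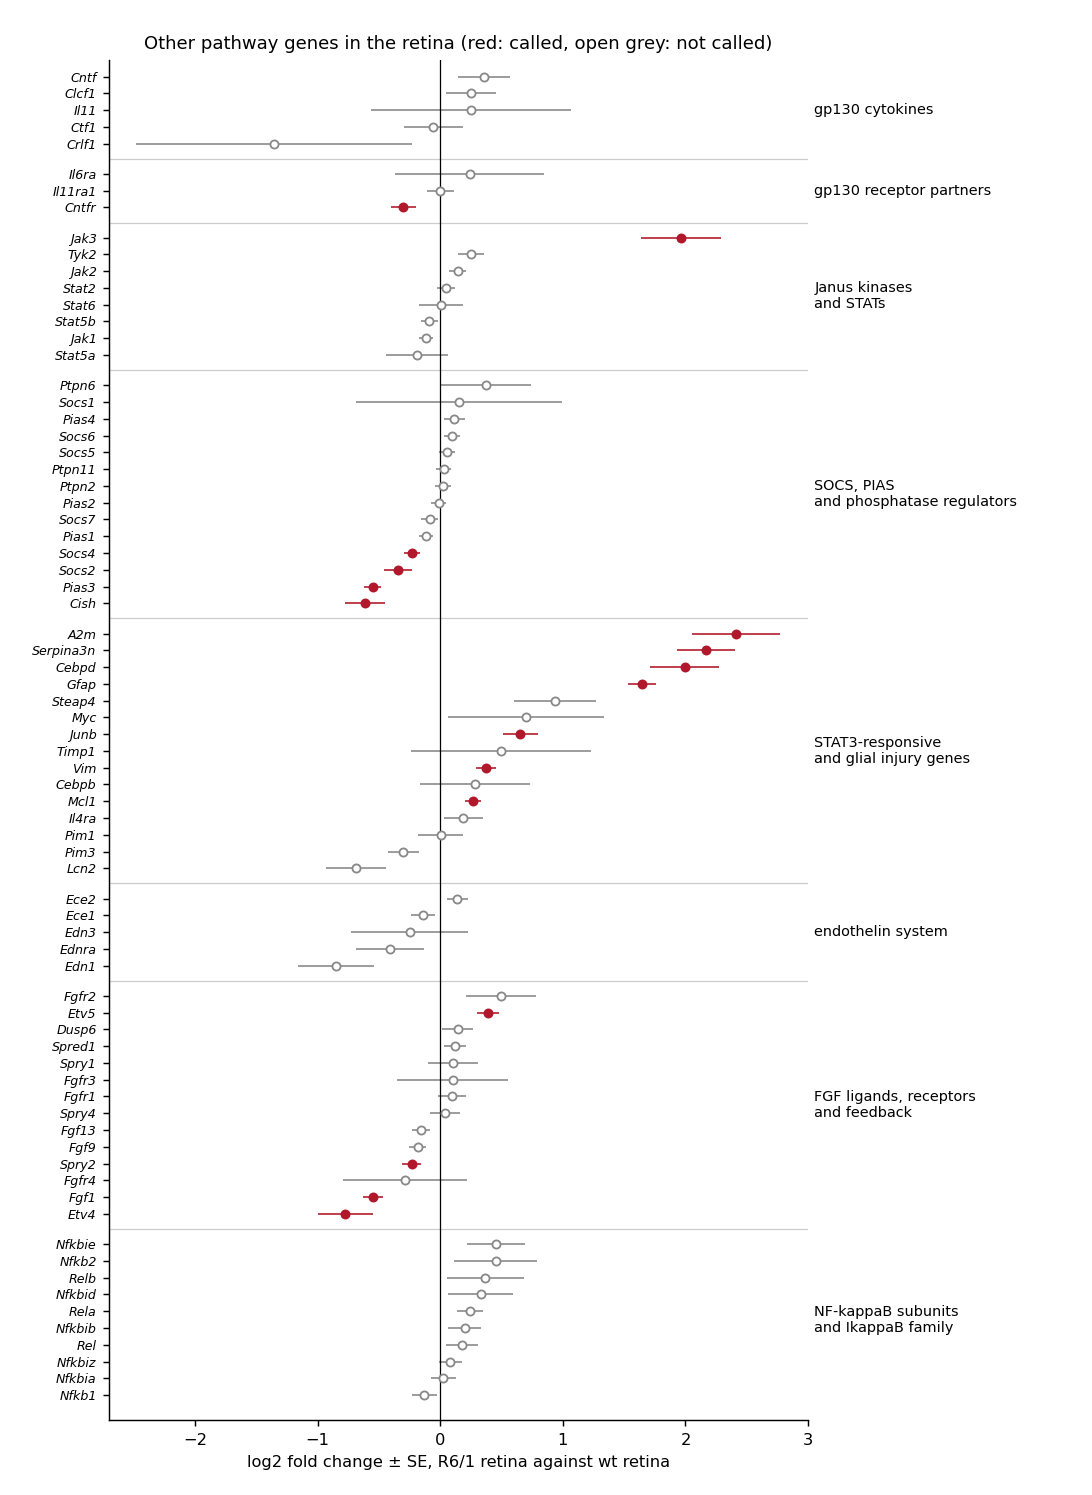
Log2 fold change of R6/1 retina against wt retina with its SE (horizontal axis) for further pathway genes tested, grouped by list and ordered by value within a list. Filled red points passed at an adjusted p under 0.05 and open grey points did not. The increases above 1 lie in the list of Stat3-responsive and glial injury genes (A2m, Serpina3n, Cebpd, Gfap) and at Jak3.

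In the R6/1 striatum none of the genes was called. Edn2 had 0 counts in all 6 striata and could not be tested, and the other 9 gave no call by edgeR, DESeq2 or limma-voom, with 2 at an unadjusted p under 0.05. The background in this fit was also low, with 1.45% of 16728 genes called, 0.132% as higher and 1.32% as lower. It depended on the fit, with 242 genes called here, 988 by DESeq2 and 1663 with the replicate number as a block. The 2 genes at an unadjusted p under 0.05 were Fgf2 and Socs3, and both stood lower in R6/1 striata, in contrast to the retina. Fgf2 had 9.73, 11.2 and 9.68 CPM in R6/1 striata, against 14.11, 12.9 and 12.8 CPM in wt striata, with no overlap (log2 −0.38, SE 0.11, adjusted p = 0.109 by edgeR). Socs3 had 0.62, 0.688 and 1.04 CPM in R6/1 striata, against 2.45, 0.865 and 1.72 CPM in wt striata (−1.08, SE 0.42, adjusted p = 0.204). Its groups overlapped through wt striatum replicate 2, and without that library Socs3 was called lower (−1.40, SE 0.36, adjusted p = 0.0367).

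Stat3 had 49.2, 49.9 and 46.5 CPM in R6/1 striata, against 41.8, 46.3 and 44.6 CPM in wt striata. The lowest R6/1 library lay just above the highest wt library, and the difference did not pass (0.13, SE 0.07, adjusted p = 0.336). Groups that did not overlap were found for 2 of the 9 genes, Fgf2 and Stat3, against 25.6% of all genes tested. Il6st had 129, 153 and 131 CPM in R6/1 striata, against 108, 138 and 111 CPM in wt striata (0.20, SE 0.11, adjusted p = 0.334). It was called higher with the replicate number as a block (0.21, SE 0.06, adjusted p = 0.0488) and without wt striatum replicate 2 (0.33, SE 0.09, adjusted p = 0.0408). Ednrb, which is far more abundant here than in the retina, had 83.9, 106 and 77.6 CPM in R6/1 striata and 80.3, 102 and 86.8 CPM in wt striata. The groups overlapped and the difference was −0.01 (SE 0.13). Lifr (−0.04, SE 0.12), Osmr (0.05, SE 0.15), Lif (−0.21, SE 0.63) and Bcl3 (−0.46, SE 0.56) overlapped between genotypes too, the last at 4, 4 and 3 counts in R6/1 striata and 5, 4 and 5 counts in wt striata. Lif had 29 counts over the R6/1 striata and 29 over the wt striata.

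**Figure D4:**
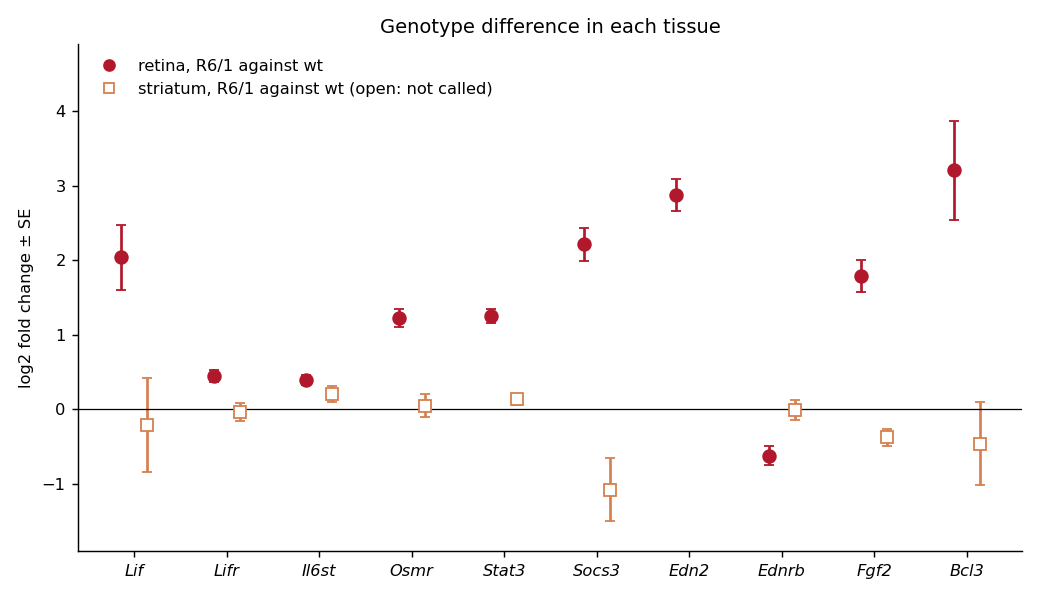
Log2 fold change of R6/1 against wt with its SE (vertical axis) for each gene in the retina (circles, left) and in the striatum (squares, right). All 10 retinal values passed (filled) and none of the 9 striatal values did (open), and Edn2 has no striatal value because all 6 libraries were at 0.

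Of the pathway genes, 3 of 76 tested were lower in R6/1 striata and none higher by edgeR. Limma-voom called 2 lower and none higher, DESeq2 called 5 lower and 2 higher, and at an unadjusted p under 0.05 there were 14 lower and 12 higher. The kinase gene Pim1, a known target of Stat3, had 1.49, 1.55 and 1.37 CPM in R6/1 striata, against 3.35, 3.36 and 3.93 CPM in wt striata (−1.26, SE 0.20, adjusted p = 0.0235 by edgeR). The FGF feedback genes Dusp6 (−0.65, SE 0.13, adjusted p = 0.0475) and Etv5 (−0.56, SE 0.08, adjusted p = 0.0203) were the others. The calls of Pim1, Dusp6 and Etv5 were lost on leaving out any one of wt striatum replicates 1 and 3 and R6/1 striatum replicates 1 and 3 (adjusted p up to 0.133, 0.233 and 0.125), and that of Dusp6 also without R6/1 striatum replicate 2, by limma-voom, with library totals and with DESeq2 size factors. With the replicate number as a block, 9 were lower and 2 higher. Gfap had 65.3, 97.7 and 49.0 CPM in R6/1 striata and 55.0, 83.6 and 64.4 CPM in wt striata (0.06, SE 0.28).

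Whether the genotype effect differed between the tissues was tested as an interaction over all 12 libraries. This fit treated the libraries as independent, although retina and striatum came from the same animals. Replicate number as a block, within tissues or by pool, was used in alternative fits. Of the 9 genes tested, 5 had a significantly higher effect in the retina and none a lower one, beside 8.24% of 15731 genes called, 3.38% as higher and 4.86% as lower. Limma-voom called 4 higher and none lower, DESeq2 called 4 higher and 1 lower, and 1 gene had a lower effect at an unadjusted p under 0.05. The difference on the log2 scale was 1.09 for Stat3 (SE 0.13, adjusted p = 0.000198), 2.13 for Fgf2 (SE 0.23, adjusted p = 0.000198), 3.26 for Socs3 (SE 0.49, adjusted p = 0.00107) and 1.14 for Osmr (SE 0.20, adjusted p = 0.00354, all by edgeR). These 4 calls held in all 23 alternative fits. Bcl3 had the largest difference, 3.63 (SE 0.96, adjusted p = 0.0314). Its call was lost on leaving out any one of wt retina replicate 1 or 2, R6/1 retina replicate 1 or 2, wt striatum replicate 1 or 3 or R6/1 striatum replicate 2 or 3 (adjusted p up to 0.0777).

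The remaining 4 genes did not pass, and Edn2 could not be tested because its striatal counts were all 0. Lif had the widest uncertainty among them (2.21, SE 0.80, adjusted p = 0.105). Without R6/1 striatum replicate 2, which held 20 of the 29 Lif counts of its group, Lif was called (3.08, SE 0.78, adjusted p = 0.0267). Lifr (0.45, SE 0.16, adjusted p = 0.111) was also called without that library (0.58, SE 0.14, adjusted p = 0.0232). Ednrb was near the threshold (−0.65, SE 0.19, adjusted p = 0.054), and passed with replicate number as a block within tissues (−0.64, adjusted p = 0.00328), without wt striatum replicate 2 (−0.75, adjusted p = 0.0135) and without R6/1 striatum replicate 3 (−0.73, adjusted p = 0.0275). Il6st had the smallest difference (0.15, SE 0.14, adjusted p = 0.557), so its increase in the retina was not shown to differ from its value in the striatum. Of the further pathway genes 8 of 73 were higher and 2 lower in this test. Etv5, at 0.93 (SE 0.13), Pim1, at 1.23 (SE 0.26), and Serpina3n, at 2.23 (SE 0.46), kept this call whichever library was left out, as did Socs4 among the lower genes (−0.46, SE 0.09). Pim1 did not rise in the R6/1 retina (0.00, SE 0.18), and its difference reflects its lower level in R6/1 striata (−1.26). Etv5 stood at 0.39 in the retina and at −0.56 in the striatum.

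In wt mice the genes differed between retina and striatum already, with the retina given over the striatum here. Of the 10 genes 4 were higher in wt retina and 1 was lower, beside 37.8% of 16864 genes called higher and 38.5% called lower. These 5 were also the genes whose libraries did not overlap between the wt tissues, as held for 79.1% of all genes. Edn2 had 69 counts in wt retinas and 0 in wt striata, which makes it at least 26.1-fold higher in wt retina when 3 counts over the group are taken as the floor. By the same floor it was at least 206-fold higher in R6/1 retinas (599 counts) than in R6/1 striata (0 counts). Fgf2 was 2.82-fold (log2 1.50, SE 0.10), Lifr 2.29-fold (1.20, SE 0.09) and Osmr 2.20-fold (1.13, SE 0.13) higher in wt retina. Ednrb stood at 9.97 to 12.4 CPM in wt retinas and at 80.3 to 102 CPM in wt striata, a 7.99-fold lower level in the retina (−3.00, SE 0.11, adjusted p = 7.21e-10 by edgeR).

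Stat3, by contrast, had overlapping ranges in the wt tissues, 41.2 to 49.7 CPM in retina and 41.8 to 46.3 CPM in striatum (0.02, SE 0.08). Il6st (0.13, SE 0.10), Socs3 (−0.19, SE 0.37), Lif (−0.66, SE 0.52) and Bcl3 (−0.63, SE 0.78) did not pass either, and Il6st passed without wt striatum replicate 2 (0.25, SE 0.07, adjusted p = 0.00421). Over the 4 groups the R6/1 retina had the highest mean for every gene but Ednrb, which had its lowest mean there. For Stat3 the other 3 groups overlapped with their neighbours in the order R6/1 striatum, wt retina, wt striatum. For Fgf2 all 4 groups were apart, in the order R6/1 retina, wt retina, wt striatum, R6/1 striatum. For Socs3 the wt striatum and wt retina overlapped and the R6/1 striatum lay below both in its mean.

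Genes with the most similar pattern over the 12 libraries were sought for 3 of the members among 14179 genes with a mean of at least 1 CPM, as a description without a test, since libraries of a group share tissue and genotype. Stat3 was followed most closely by H2-Q4 (Pearson r = 0.967), H2-K1 (0.964), both genes of the MHC class I complex, and Lad1 (0.959). Edn2 was followed by Hey2 (0.993), a transcriptional repressor of the Notch pathway, Acsl1 (0.992), a fatty acid activating enzyme, and Ccdc175 (0.992). Ednrb was followed by Gprc5b (0.998), Lgi3 (0.998) and Hdac11 (0.998). The high values for Edn2 and Ednrb go with their large gap between retina and striatum.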

How the data were processed

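RNA was measured in 12 libraries of pooled mRNA, 3 per tissue and genotype. The authors made stranded libraries, used CASAVA for base calls, Trimmomatic for trimming and Salmon for quantification against GRCm38/mm10, with versions not given in the sources used here. The deposited values are estimated counts per gene as whole numbers, not normalized, for 17579 genes, of which 17527 matched a GENCODE M21 symbol. The authors left out genes with few counts, so the lowest total is 11. No column was left without a sample.

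For each tissue the R6/1 and wt libraries were fitted alone in R 4.3.3 by edgeR 4.0.16 (TMM factors, robust quasi-likelihood F-test) on genes with at least 10 counts over the libraries compared, for the difference in each tissue. Benjamini-Hochberg adjustment ran over every gene tested in a comparison. SE is the log2 fold change divided by the square root of F. Levels are CPM with TMM factors over 12 libraries, with a prior count of 2 for log2 values. Length is the union of GENCODE exons. Lif and Bcl3 rest on the fewest counts of the 10 genes apart from Edn2 in the striatum, and intervals were not needed for levels given per library. Alternatives were library totals, DESeq2 size factors, limma-voom (limma 3.58.1), DESeq2 1.42.0, TMM without rod and cone genes, no count filter or filterByExpr, a spread estimated without the robust option, an adjusted p under 0.01, 1 fit of all 12 libraries, replicate number as a block, and leaving out each library. The fits were tested on simulated data. Python 3.11.15, numpy 2.4.6, pandas 2.3.3 and matplotlib 3.10.9 were used for tables and plots.

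Every one of the 10 genes is named in each comparison, tested or not. Of the 8 pathway lists, genes called in any genotype comparison were named, up to 5 per list by smallest p, and others singled out were chosen after their values were seen. The 14 marker lists were summed per library. Some genes of these lists are counted in the totals and are not reported here by name. The genes, the lists and the motif were chosen with earlier results of these data known. Of the pathway lists Il6, Il27, Ccl2 and Kel were not analysed here, and Osm, Il27ra and Stat4 did not reach the count minimum in the retina.

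Pairing by replicate number was checked through the correlation of deviations from the group mean over 10445 genes. The numbers were taken to pair R6/1 and wt striata (0.274, 0.329 and 0.257 for numbers 1, 2 and 3) but not R6/1 and wt retinas (−0.09 to 0.12). For R6/1 striata the highest correlation with another number was −0.0707, −0.0421 and 0.240 for numbers 1, 2 and 3. Number 3 was thus hardly set apart. Retina and striatum of the same number correlated in R6/1 mice (0.119 to 0.242) and not in wt mice (−0.03 to 0.02). No source states what the numbers mean.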

Additional observations from a re-analysis of the deposited data

Results flagged for a closer look

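Of 15731 genes tested for a different R6/1 effect in retina and striatum by the interaction test of edgeR, 8.24% were called. Of the 9 listed genes tested, 5 were called, all with the higher effect in the retina, and Edn2 could not be tested. The difference on the log2 scale, retina minus striatum, was 1.14 for Osmr, 1.09 for Stat3, 3.26 for Socs3, 2.13 for Fgf2 and 3.63 for Bcl3. The Bcl3 value rests on 90 counts in R6/1 retinas and 8 in wt retinas, with 11 in R6/1 striata and 14 in wt striata. The call of Bcl3 was lost in 10 of 22 alternatives.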

How the results depend on the processing

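In the retina all 10 genes kept direction and call in every one of the 17 alternatives, 170 fits in all. Among the further pathway genes of the retina, library totals gave 16 higher and 4 lower, DESeq2 gave 5 lower, an adjusted p under 0.01 gave 2 lower, and leaving out single libraries gave 3 to 7 lower.

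In the striatum none of the 10 genes was called, except Il6st as the 1 gene higher with the replicate block (0 to 1 higher and 0 to 1 lower without single libraries, where wt striatum replicate 2 decided both). The pathway genes there counted 2 higher and 5 lower by DESeq2, 1 higher and 5 lower in 1 fit of all 12 libraries, 2 higher and 9 lower with the replicate block, 0 lower at an adjusted p under 0.01, and 0 to 4 higher and 0 to 8 lower without single libraries. Over all genes of the striatum 242 were called, beside 988 by DESeq2, 1300 in the joint fit, 1663 with the replicate block, 7 at an adjusted p under 0.01 and 1 to 1916 without single libraries. Library totals gave 220 higher and 209 lower, beside 22 higher and 220 lower, and moved the median of all genes to 0.12. Signs near 0 turned. With library totals Lifr was at 0.0766 and Ednrb at 0.0985. Without single libraries Lif ranged over −1.07 to 0.20, Lifr over −0.163 to 0.0671, Osmr over −0.0286 to 0.152 and Ednrb over −0.15 to 0.10.

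In the difference between tissues 1 gene, Ednrb, was called lower with DESeq2 size factors, TMM without rod and cone genes, filterByExpr, DESeq2 and either replicate block (0 to 1 without single libraries). The pathway genes counted 5 higher by limma-voom, 1 higher and 1 lower at an adjusted p under 0.01, 5 lower by DESeq2, 5 lower with the replicate block, and 3 to 8 higher and 1 to 6 lower without single libraries. Library totals gave 637 higher and 555 lower over all genes, beside 531 and 765. Bcl3 lost its call in 10 of 22 alternatives, and Lifr gained one with the block by pool (0.45, adjusted p = 0.0393). Between wt tissues Stat3 ranged over −0.0481 to 0.0849 and Socs3 over −0.52 to 0.18 without single libraries. DESeq2 gave no adjusted p for Lif and Bcl3 in the striatum or for Bcl3 in the difference. The replicate block changed no other call of the 10 genes. The cause of these changes was not tested. Apart from Edn2 in the striatum, the fewest counts were those of Lif and Bcl3, with 3 to 45 counts in most libraries and single libraries at 0 or 2.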
